A study of Mus musculus with 6 samples.

Results

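Tongues of 3 control mouse embryos at embryonic day 14.5 (E14.5) were profiled on expression arrays, and the present description is of these control arrays alone: 3 of the 6 arrays of the series, chosen by their titles. The controls were of strain C57BL/6J with both copies of Tgfbr2 floxed (Tgfbr2 fl/fl) and no Cre, although the titles call them Tgfbr2 wildtype. Floxed alleles carry recombination sites that leave the gene in place until Cre cuts between them. The other arrays of the series came from mutants in which Wnt1-Cre deletes Tgfbr2 in the cranial neural crest, and no comparison with them was made here. The labels give the gender as not determined, and do not say whether an array held a single tongue or a pool, or whether the embryos shared a litter. The spread between the arrays may therefore be technical as well as biological.

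The embryonic tongue is built from lineages that meet in the floor of the mouth. Muscle precursors leave the occipital somites and reach the tongue bud, where Pax3 and Pax7 mark the precursors and the factors Myf5, Myod1 and Myog commit them and start fusion into fibres. Cranial neural crest cells supply the connective tissue, tendon and vessel walls around the fibres, and an oral epithelium with basal keratins and early taste placodes covers the whole. Ligands of the TGF-beta, BMP, FGF, Wnt and hedgehog families pass between these layers.

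Each array gave 1 log2 RMA value for each of 45101 probe sets, with medians of 5.92, 5.95 and 5.95. The 34945 probe sets with exactly 1 gene symbol read 18193 genes, and the probe set with the highest control mean stood for a gene with several. Values below are given in the order control array 1, 2 and 3, followed by the mean ± SD over the 3 arrays (n = 3). Brightness depends on the probes as well as on the RNA: among 9010 genes with several probe sets, the brightest and the dimmest of a gene differed by a median of 2.36 on the log2 scale. The order of genes by brightness is therefore an order of signals and gives no ratio between genes. In a bulk sample such as a whole tongue, fewer cells of a type and less RNA per cell cannot be told apart.

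Olfactory and vomeronasal receptor genes, which serve smell in the nose, were used to set a background level. The 95th percentile of 70 such genes was 5.57, 5.59 and 5.59, and a gene counted as above the level when it exceeded this value on every array. By this rule 12421 of 18193 genes (68.3%) lay above the level. This share is the background for every count of list members above the level given below. The genes just inside and just outside it had nearly the same signal: Chrne, a subunit of the adult acetylcholine receptor, was inside at 5.67, 5.65 and 5.59 (mean 5.64 ± 0.040), and Ybey was outside at 5.70, 5.74 and 5.59. The level is thus a mark on a continuous scale, and marker genes of tissues outside the tongue gave a measure of how often it is passed without the tissue being sampled. Of 40 markers of liver, pancreas, gut, brain, eye and testis, 7 (17.5%) lay above it.

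**Figure D1:**
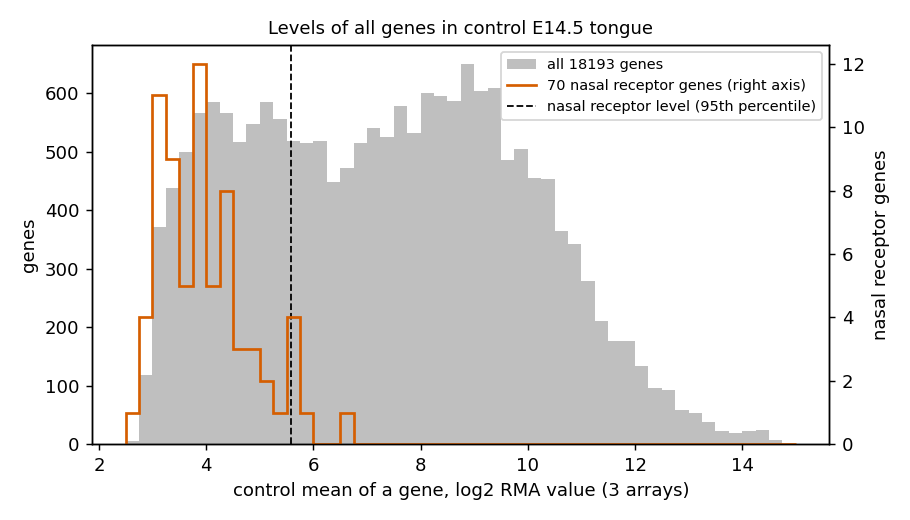
Histogram of the control mean (log2 RMA value) of all 18193 genes in grey (left axis, number of genes) and of the 70 nasal receptor genes as an orange outline (right axis), with their 95th percentile as a dashed line. The nasal receptor genes had a median of 3.86, and 68.3% of all genes lay above the dashed line on every array.

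Array 1 stood apart from the other arrays and bears on every spread given below. Over the 12421 genes above the level, Pearson's r across genes was 0.998 between arrays 2 and 3, and 0.994 between array 1 and either of them. Genes are not independent replicates, so these coefficients only describe the arrays. The median absolute difference was 0.0663 between arrays 2 and 3, 0.107 between arrays 1 and 2, and 0.113 between arrays 1 and 3. The median SD of a gene was 0.0815 over all 3 arrays and 0.047 without array 1.

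The brightest genes were those of the protein synthesis machinery. Among the 30 brightest, with means from 14.28 to 14.91, 20 encode ribosomal proteins, and among the 100 brightest 36 do. Tpt1, a growth-related protein whose messenger RNA is among the most abundant of many cells, was the brightest gene at 14.89, 14.93 and 14.90 (mean 14.91 ± 0.018). Eef1a1, which brings aminoacyl-tRNA to the ribosome, followed at 14.69, 14.69 and 14.68 (mean 14.69 ± 0.0048). These genes scarcely varied, and the median SD over the 30 brightest was 0.0233.

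Besides ribosomal genes, the top 30 held cytoskeletal, imprinted and muscle genes. Beta-actin (Actb) was at 14.40, 14.44 and 14.41 (mean 14.42 ± 0.018), and the monomer-binding thymosins Tmsb10 and Tmsb4x were at 14.65, 14.63 and 14.60 (mean 14.63 ± 0.024) and at 14.31, 14.31 and 14.31 (mean 14.31 ± 0.0031). Lgals1, a galactoside-binding lectin, was at 14.30, 14.34 and 14.35 (mean 14.33 ± 0.028). The imprinted growth regulators Plagl1, a zinc finger factor, and Cdkn1c, an inhibitor of the cell cycle, were at 14.31, 14.46 and 14.45 (mean 14.41 ± 0.084) and at 14.36, 14.40 and 14.43 (mean 14.40 ± 0.036). Itm2a, a membrane protein linked to cartilage and muscle differentiation, was at 14.35, 14.42 and 14.42 (mean 14.40 ± 0.038). Actc1, the alpha-actin of heart and embryonic skeletal muscle, was the only gene specific to sarcomeres among the 30, at 14.28, 14.41 and 14.38 (mean 14.36 ± 0.070). Of the 30 probe sets, 12 carry a name suffix used for probes that also match related transcripts, so the exact membership depends on probe design: with such probe sets left out, 19 of the 30 genes remained.

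Promoter sequences of 4 muscle genes are shown because these genes carry the main patterns of the muscle programme here: Actc1 was the brightest sarcomeric actin, and Ckm, Casq1 and Ttn were among the genes with lower signal on array 1. Each window lies mostly upstream of the annotated start and runs 5′ to 3′ on the gene's strand, from RefSeq with build GRCm38.p6. Capitals mark every match to the E-box CANNTG, the core motif bound by Myod1, Myog and other basic helix-loop-helix factors. The windows are chr2:114052826-114053125 (minus strand) for Actc1, chr7:19410844-19411143 (plus strand) for Ckm, chr1:172219846-172220145 (minus strand) for Casq1 and chr2:76982498-76982797 (minus strand) for Ttn.
Actc1: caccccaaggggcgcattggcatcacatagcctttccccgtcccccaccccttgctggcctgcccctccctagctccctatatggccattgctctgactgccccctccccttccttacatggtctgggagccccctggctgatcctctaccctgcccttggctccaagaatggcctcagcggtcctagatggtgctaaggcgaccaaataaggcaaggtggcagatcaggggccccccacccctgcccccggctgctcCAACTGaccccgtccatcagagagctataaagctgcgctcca
Ckm: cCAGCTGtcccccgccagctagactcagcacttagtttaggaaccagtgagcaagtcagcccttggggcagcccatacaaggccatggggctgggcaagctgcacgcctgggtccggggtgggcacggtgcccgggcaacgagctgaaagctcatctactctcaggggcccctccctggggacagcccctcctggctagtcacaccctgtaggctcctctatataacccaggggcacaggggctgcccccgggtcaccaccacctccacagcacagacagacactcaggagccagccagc
Casq1: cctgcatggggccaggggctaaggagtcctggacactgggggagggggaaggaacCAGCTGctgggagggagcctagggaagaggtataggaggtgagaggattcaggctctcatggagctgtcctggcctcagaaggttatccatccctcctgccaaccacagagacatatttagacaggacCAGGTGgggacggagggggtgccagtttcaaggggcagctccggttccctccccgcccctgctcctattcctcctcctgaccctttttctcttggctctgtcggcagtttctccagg
Ttn: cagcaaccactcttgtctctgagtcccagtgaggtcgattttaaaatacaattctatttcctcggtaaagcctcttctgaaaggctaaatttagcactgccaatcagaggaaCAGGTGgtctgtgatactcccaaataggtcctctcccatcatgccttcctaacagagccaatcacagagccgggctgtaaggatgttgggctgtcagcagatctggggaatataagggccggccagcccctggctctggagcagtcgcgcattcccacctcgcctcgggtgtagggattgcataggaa

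CANNTG reads the same on both strands and occurred 1 time in the windows of Actc1, Ckm and Ttn and 2 times in that of Casq1. Its variant CAGCTG, which is also counted as a CANNTG match, occurred 1 time in the windows of Ckm and Casq1. Over the 14452 measured genes with a promoter window in the RefSeq table, 67.0% held CANNTG and 16.1% held CAGCTG on either strand, and over the 9991 windows of genes above the level the shares were 63.0% and 15.2%. The lists for troponins, for thick filament, M band and Z disc and for excitation-contraction coupling and junction held 69 genes above the level. Of these 45 had a window, of which 86.7% held CANNTG and 51.1% held CAGCTG. The median GC content of the windows was 58.0% for the 69 genes, 61.0% for genes above the level and 58.7% for all genes. TATAAA, searched on both strands, was present in 8.89% of the windows of the 69 genes, in 7.21% of those of genes above the level and in 9.87% of all windows. A match describes letters in a window and is no evidence of binding.

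The regulators of the muscle lineage were nearly all above the level: 33 of 34 measured factors of commitment and differentiation, against 68.3% of all genes. Myog, which drives fusion and terminal differentiation, was the brightest at 12.64, 12.69 and 12.68 (mean 12.67 ± 0.027). Mef2c, a partner of the myogenic factors, was at 11.99, 12.17 and 12.26 (mean 12.14 ± 0.14), and Mef2a was at 10.73, 10.98 and 11.01 (mean 10.90 ± 0.15). Myf5 and Myod1, which commit precursors to the lineage, were at 10.43, 10.55 and 10.41 (mean 10.46 ± 0.078) and at 9.98, 9.76 and 9.82 (mean 9.86 ± 0.11). Myf6, a later factor of the same family, was at 8.01, 8.58 and 8.58 (mean 8.39 ± 0.33), with array 1 below the others by more than 0.5.

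Markers of the precursor state were detected beside those of fusing cells. Pax7 was at 8.83, 8.81 and 8.82 (mean 8.82 ± 0.012) and Pax3 was at 8.50, 8.68 and 8.50 (mean 8.56 ± 0.11), and Lbx1, required for migration of precursors into the tongue, was at 7.52, 7.68 and 7.66 (mean 7.62 ± 0.086). The hepatocyte growth factor receptor Met, which releases migrating precursors, was at 10.26, 10.27 and 10.20 (mean 10.24 ± 0.036), while its ligand Hgf gave a low signal at 6.66, 6.07 and 6.40 (mean 6.37 ± 0.30). The fusion proteins myomaker (Mymk) and myomixer (Mymx) were at 8.90, 9.14 and 9.34 (mean 9.13 ± 0.22) and at 11.07, 11.11 and 11.04 (mean 11.07 ± 0.034). Of the factors of head muscle, Msc was at 9.70, 9.68 and 9.69 (mean 9.69 ± 0.011), Tbx1 at 9.45, 9.51 and 9.51 (mean 9.49 ± 0.037) and Tcf21 at 7.13, 6.93 and 6.79 (mean 6.95 ± 0.17). Nfix, which in mice marks the switch from embryonic to fetal myoblasts, was at 11.63, 12.02 and 11.92 (mean 11.86 ± 0.20). The only measured member not above the level was Mef2b, at 5.18, 5.53 and 5.29 (mean 5.33 ± 0.18).

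Among the myosin heavy chains of muscle fibres, the developmental isoforms and the slow isoform Myh7 lay apart from the adult fast isoforms. Myh3, the embryonic isoform, was at 13.61, 13.83 and 13.92 (mean 13.79 ± 0.16), and Myh8, the perinatal isoform, was at 11.66, 12.32 and 12.29 (mean 12.09 ± 0.38). Myh7, the slow isoform shared with the heart, was at 10.40, 10.55 and 10.55 (mean 10.50 ± 0.089). All 3 lay more than 4 log2 units above the background level on every array.

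The adult fast isoforms were dim or not above the level. Myh2 and Myh4 were not above the level, at 3.93, 3.94 and 4.01 (mean 3.96 ± 0.046) and at 5.01, 4.82 and 4.65 (mean 4.83 ± 0.18). Myh1 passed at 6.72, 6.32 and 6.58 (mean 6.54 ± 0.20), through a probe set whose suffix marks shared probes. Of its other probe sets, 1 was also above the level at 6.66, 6.23 and 6.05, and the other was far below it at 3.91, 4.04 and 3.89. The non-muscle chains Myh10 and Myh9, which are present in most cells, were at 12.31, 12.40 and 12.40 (mean 12.37 ± 0.053) and at 11.11, 11.22 and 11.18 (mean 11.17 ± 0.056), whereas the smooth muscle chain Myh11 was not above the level at 5.28, 5.23 and 5.19 (mean 5.23 ± 0.047). Of the heart and minor isoforms, Myh6 was at 6.54, 6.79 and 6.64 (mean 6.65 ± 0.12), Myh14 at 6.51, 6.65 and 6.54 (mean 6.57 ± 0.074) and Myh7b, not above the level, at 5.54, 5.36 and 5.60 (mean 5.50 ± 0.12).

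**Figure D2:**
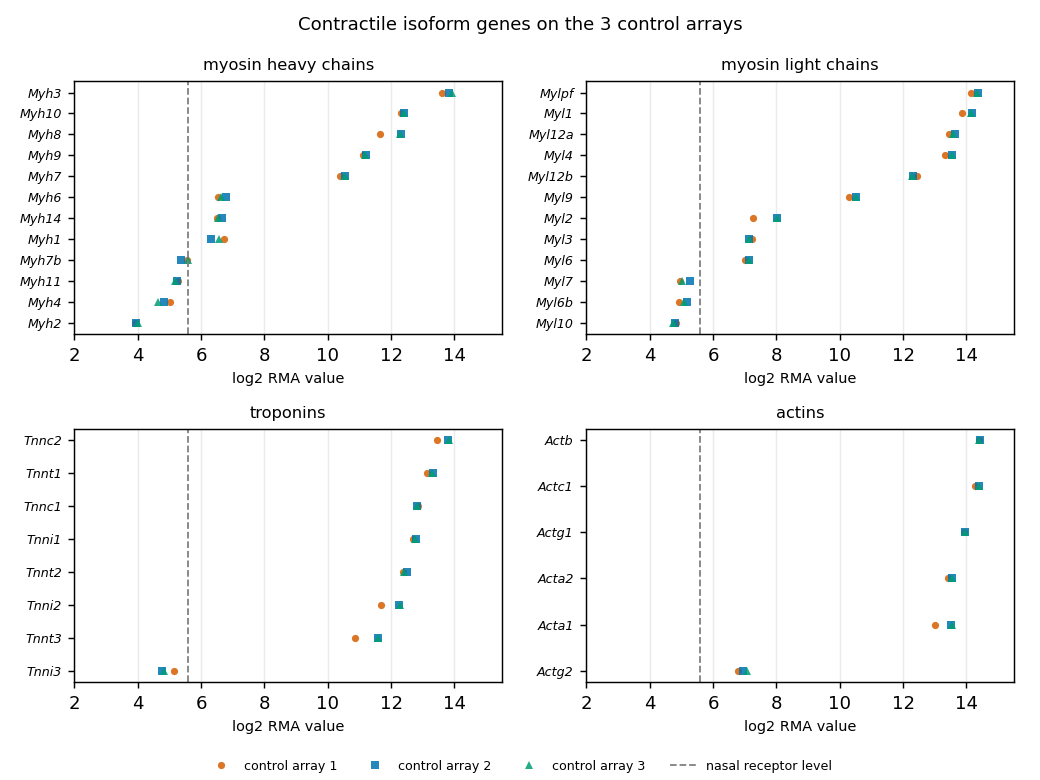
Values of myosin heavy chain, myosin light chain, troponin and actin genes (log2 RMA value) on control array 1 (circles), 2 (squares) and 3 (triangles), ordered by mean, with the nasal receptor level of about 5.59 dashed. Myh3, Myh8 and Myh7 sit far to the right of Myh1, Myh4 and Myh2, and array 1 lies to the left of the others for Myh8, Myl2, Tnni2, Tnnt3 and Acta1.

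The fast light chains Mylpf and Myl1 were the brightest of their list, and the non-muscle Myl12a lay just above the embryonic Myl4. Mylpf, the fast regulatory light chain, was at 14.15, 14.36 and 14.32 (mean 14.28 ± 0.11), Myl1, the fast essential chain, at 13.85, 14.18 and 14.15 (mean 14.06 ± 0.19), and Myl4, the embryonic and atrial chain, at 13.31, 13.53 and 13.53 (mean 13.46 ± 0.13). The slow and ventricular chains Myl2 and Myl3 were far dimmer, at 7.27, 8.03 and 8.03 (mean 7.78 ± 0.44) and at 7.23, 7.12 and 7.13 (mean 7.16 ± 0.063), and the atrial chain Myl7 was not above the level at 4.95, 5.26 and 5.01 (mean 5.07 ± 0.16). Non-muscle and smooth muscle chains were also present, with Myl12a at 13.45, 13.63 and 13.56 (mean 13.55 ± 0.092), Myl12b at 12.44, 12.31 and 12.28 (mean 12.34 ± 0.089) and Myl9 at 10.29, 10.50 and 10.53 (mean 10.44 ± 0.13). The remaining members were Myl6 at 7.10 ± 0.074 and, not above the level, Myl6b at 5.05 ± 0.13 and Myl10 at 4.79 ± 0.047.

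Both the fast and the slow forms of each troponin subunit were bright, in contrast to the heavy chains. The calcium-binding subunits were at 13.44, 13.81 and 13.85 (mean 13.70 ± 0.22) for the fast form Tnnc2 and at 12.86, 12.81 and 12.81 (mean 12.83 ± 0.029) for the slow and cardiac form Tnnc1. The inhibitory subunits Tnni1 (slow) and Tnni2 (fast) were at 12.70, 12.80 and 12.76 (mean 12.75 ± 0.048) and at 11.67, 12.26 and 12.29 (mean 12.08 ± 0.35). The tropomyosin-binding subunits Tnnt1 (slow), Tnnt2 (cardiac) and Tnnt3 (fast) were at 13.14, 13.33 and 13.30 (mean 13.26 ± 0.10), at 12.38, 12.49 and 12.41 (mean 12.43 ± 0.056) and at 10.87, 11.60 and 11.60 (mean 11.36 ± 0.42). Cardiac Tnni3 was the only member not above the level, at 5.14, 4.77 and 4.84 (mean 4.91 ± 0.19). Array 1 was the lowest for 6 of the 7 members above the level, against 30.9% of all genes above it, and it fell below both others by more than 0.5 in the fast genes Tnni2 and Tnnt3.

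All 6 actin genes were above the level. After Actc1, the skeletal alpha-actin Acta1 was at 13.01, 13.52 and 13.53 (mean 13.35 ± 0.30), with array 1 separate from the others. Acta2, the smooth muscle alpha-actin, was at 13.42, 13.54 and 13.55 (mean 13.50 ± 0.072) and Actg1, the cytoplasmic gamma-actin, at 13.94, 13.95 and 13.96 (mean 13.95 ± 0.011), each through a probe set with a suffix for shared probes. The smooth muscle gamma-actin Actg2 was much dimmer at 6.80, 6.93 and 7.06 (mean 6.93 ± 0.13). The 4 tropomyosins lay close together, from 11.66 ± 0.10 for Tpm2 to 12.61 ± 0.089 for Tpm1.

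Genes of the thick filament, M band and Z disc were above the level in 34 of 35 measured members, with a median of 10.22 against 7.35 over all genes. Titin (Ttn), the elastic scaffold of the sarcomere, was at 11.97, 12.92 and 12.95 (mean 12.61 ± 0.55). Myom2, which links thick filaments at the M band, was at 12.28, 12.63 and 12.63 (mean 12.51 ± 0.21), and Csrp3, a Z disc protein, at 11.80, 12.41 and 12.45 (mean 12.22 ± 0.37). Nebulin (Neb), which lines the thin filament, was at 9.82, 10.66 and 10.68 (mean 10.39 ± 0.49). The thick filament protein Mybpc1 of slow muscle was at 9.94, 10.39 and 10.44 (mean 10.26 ± 0.27), and Mybpc3 of heart at 6.18, 6.30 and 6.49 (mean 6.32 ± 0.16). The fast form Mybpc2 was the only measured member not above the level, at 5.24, 5.31 and 5.20 (mean 5.25 ± 0.055). In this list 31 of 34 members were lowest on array 1, against 30.9% of all genes above the level.

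Genes that couple excitation to contraction were also largely present, with 28 of 32 above the level. Sarcolipin (Sln), an inhibitor of the calcium pump, was at 12.11, 12.42 and 12.49 (mean 12.34 ± 0.20). The pump gene Atp2a2, whose use is not confined to slow and cardiac muscle, was at 11.78, 11.93 and 11.93 (mean 11.88 ± 0.086). The fast pump Atp2a1 was at 8.79, 9.01 and 9.05 (mean 8.95 ± 0.14). The calcium store proteins calsequestrin 2 (Casq2), of slow and cardiac type, and Casq1, of fast type, were at 11.55, 11.98 and 12.10 (mean 11.88 ± 0.29) and at 7.86, 9.11 and 8.99 (mean 8.66 ± 0.69). The release channel Ryr1 was at 8.24, 8.81 and 8.72 (mean 8.59 ± 0.31), Ryr3 at 5.62, 6.47 and 6.19 (mean 6.09 ± 0.43) and the cardiac Ryr2, not above the level, at 5.12, 5.05 and 5.07 (mean 5.08 ± 0.038). Casq1 had a range of 1.25 between the arrays, the widest of the list, and array 1 was the low one.

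The nerve-muscle junction was represented by the fetal form of the acetylcholine receptor. The alpha subunit Chrna1 was at 10.03, 10.27 and 10.09 (mean 10.13 ± 0.12) and the fetal gamma subunit Chrng at 8.68, 8.72 and 8.75 (mean 8.72 ± 0.039), whereas the adult epsilon subunit Chrne lay at the background level. The clustering genes Rapsn, Musk and Dok7 were at 8.97 ± 0.031, 7.83 ± 0.053 and 8.64 ± 0.14, and agrin (Agrn), a signal for clustering, was at 11.35, 11.47 and 11.55 (mean 11.46 ± 0.10). Colq, Clcn1 and Pln were not above the level, at 4.92 ± 0.086, 4.89 ± 0.15 and 4.85 ± 0.042. Colq anchors acetylcholinesterase, Clcn1 is the adult chloride channel and Pln is the cardiac pump inhibitor.

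Muscle forms of metabolic enzymes were present next to the general forms. Muscle creatine kinase (Ckm) was at 9.10, 10.46 and 10.54 (mean 10.03 ± 0.81) with array 1 low and a range of 1.44, while its other, dimmer probe set was not low on array 1 at 6.03, 6.12 and 5.85. The brain form Ckb was at 9.64, 9.67 and 9.53 (mean 9.61 ± 0.075). For enolase, the muscle form Eno3 was at 11.31, 11.64 and 11.73 (mean 11.56 ± 0.22) and the neuronal form Eno2 was not above the level at 4.70, 4.80 and 4.65 (mean 4.72 ± 0.078). The muscle mutase Pgam2 and the general Pgam1 were at 11.23 ± 0.063 and 11.18 ± 0.029, muscle aldolase Aldoa was at 11.86 ± 0.14 and lactate dehydrogenase Ldha at 12.13 ± 0.042. Mitochondrial creatine kinase of muscle, Ckmt2, was not above the level at 4.17, 4.70 and 4.39 (mean 4.42 ± 0.27), and myoglobin (Mb) was low at 7.18, 7.48 and 7.26 (mean 7.31 ± 0.16). Of the glucose transporters, Slc2a1 was at 11.10 ± 0.053 and the insulin-responsive Slc2a4 at 7.26 ± 0.091. Of the cytochrome oxidase subunits, the general Cox6a1 was at 14.06 ± 0.0064, and the muscle forms Cox6a2 and Cox7a1 were at 9.67 ± 0.17 and 5.71 ± 0.18.

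The connective tissue gave some of the brightest signals outside the ribosome. The interstitial collagens Col1a2 and Col3a1 were at 14.04, 14.22 and 14.30 (mean 14.19 ± 0.13) and at 13.92, 14.13 and 14.12 (mean 14.06 ± 0.12). Col1a1, whose product pairs with that of Col1a2 in type I collagen, was dimmer at 9.97, 10.68 and 10.66 (mean 10.44 ± 0.40), a difference between probe sets from which no ratio of the chains follows. Col6a3 of the microfibrils around fibres was at 12.21, 12.97 and 12.97 (mean 12.72 ± 0.44), and Col4a1 and Col4a2 of basement membranes were at 11.99, 12.31 and 12.43 (mean 12.24 ± 0.23) and 10.53 ± 0.21. Of the other type IV chains, Col4a5 and Col4a6 were above the level at 9.07 ± 0.098 and 6.06 ± 0.12, and Col4a3 and Col4a4, known from kidney and eye, were not, at 4.18 ± 0.11 and 4.15 ± 0.11. In all, 34 of 39 collagens passed, and 25 of these 34 were lowest on array 1, against 30.9% of all genes above the level.

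Among other matrix genes 40 of 48 were above the level. Periostin (Postn), a matrix protein of connective tissue, was at 13.46, 13.73 and 13.71 (mean 13.63 ± 0.15), Sparc, which binds collagen, at 12.94, 13.07 and 13.06 (mean 13.03 ± 0.072), and Thbs4, found at tendon and muscle attachments, at 12.36, 12.62 and 12.57 (mean 12.52 ± 0.14). The small proteoglycans Dcn and Ogn were at 12.06, 12.27 and 12.22 (mean 12.18 ± 0.11) and at 11.81, 12.13 and 12.21 (mean 12.05 ± 0.21). Fibronectin (Fn1) and fibrillin 2 (Fbn2) were at 11.44, 12.27 and 12.35 (mean 12.02 ± 0.50) and at 11.37, 12.16 and 12.19 (mean 11.91 ± 0.47), both with array 1 below the others. Genes of cartilage matrix were the main absentees: Matn1, Chad, Hapln1, Acan and Comp were not above the level, with means from 3.35 to 5.35. The tendon gene Tnmd and the tendon regulator Scx were above the level but dim, at 6.63, 6.73 and 6.94 (mean 6.77 ± 0.16) and at 7.09, 6.88 and 6.87 (mean 6.95 ± 0.12).

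The transcription factors of neural crest and jaw mesenchyme were above the level in 50 of 54 measured members. The brightest were Tcf4 at 12.53, 12.74 and 12.82 (mean 12.70 ± 0.15), a partner of many basic helix-loop-helix factors, Snai2, a factor of migrating crest, at 11.61, 11.49 and 11.51 (mean 11.53 ± 0.063), and Nr2f2 at 11.20, 11.39 and 11.39 (mean 11.33 ± 0.11). Hand2, which patterns the ventral jaw and tongue mesenchyme, was at 11.20, 10.89 and 10.85 (mean 10.98 ± 0.19), and Foxd1 was at 11.45, 11.27 and 11.05 (mean 11.25 ± 0.20). Tcf7l2, a marker of the connective tissue within muscle, was at 10.36 ± 0.16. The mesenchymal factors Prrx1 and Twist1 were at 10.32, 10.14 and 10.36 (mean 10.27 ± 0.12) and 10.19 ± 0.087. Distal-less genes of the jaw were dim: Dlx1, Dlx3 and Dlx2 passed with means of 6.79, 6.29 and 6.06, while Dlx5 and Dlx6 did not, at 5.63 ± 0.16 and 4.72 ± 0.11. Msx1 was at 6.81 ± 0.082 and Msx2, not above the level, at 4.99 ± 0.077.

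Most of these factors were highest on array 1, namely 34 of the 50, against 49.3% of all genes above the level. Osr1, a factor of early mesenchyme, had the widest range of the list at 10.37, 9.97 and 9.20 (mean 9.84 ± 0.60), and it was array 3 that lay low. The jaw factors Lhx8, Barx1 and Alx1 were at 8.91, 8.57 and 8.41 (mean 8.63 ± 0.25), at 8.07, 7.73 and 7.72 (mean 7.84 ± 0.20) and at 8.08, 7.63 and 7.53 (mean 7.75 ± 0.29). The single factor of the list that exceeded both others on array 1 by more than 0.5 was Tfap2a, needed for crest induction, at 9.22, 8.70 and 8.67 (mean 8.86 ± 0.31).

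Hox genes, which mark the trunk and the posterior branchial arches, were mostly at background. Of 33 measured, 7 (21.2%) were above the level, close to the 17.5% of the markers of absent tissues. The members above were Hoxd8 at 7.96, 7.49 and 7.56 (mean 7.67 ± 0.25), Hoxa5 at 7.24, 7.25 and 7.01 (mean 7.17 ± 0.13) and Hoxb2 at 6.94 ± 0.083, Hoxc9 at 6.88 ± 0.033, Hoxa7 at 6.54 ± 0.090, Hoxa9 at 5.99 ± 0.12 and Hoxb3 at 5.75 ± 0.034. Hoxa2, a gene of the hyoid arch, was not above the level at 4.65, 4.54 and 4.50 (mean 4.56 ± 0.073), and the count depended on the level: 12 passed with the 90th percentile of the nasal receptor genes and 5 with the 99th.

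Epithelial genes were plain in all arrays, although the sample descriptions speak of tongue mesenchyme. Of 39 measured, 33 were above the level, and the samples are described here as tongue, as the tissue label has it. Krt15, a keratin of basal cells, was at 12.44, 12.52 and 12.59 (mean 12.52 ± 0.075), and the basal keratins Krt5 and Krt14 were at 10.25, 10.36 and 10.34 (mean 10.32 ± 0.060) and at 10.41, 10.43 and 10.37 (mean 10.41 ± 0.032). The epithelial adhesion genes Cdh1 and Epcam were at 11.12, 10.65 and 10.71 (mean 10.83 ± 0.26) and at 11.00, 10.62 and 10.63 (mean 10.75 ± 0.22), and Trp63, the factor of stratified epithelia, was at 10.71, 10.58 and 10.55 (mean 10.62 ± 0.084). Desmoplakin (Dsp), which anchors keratins at desmosomes, was at 12.24, 12.31 and 12.32 (mean 12.29 ± 0.045).

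Keratins of differentiated and stress-responsive epithelium were mixed. Krt4, the suprabasal partner of Krt13, and Krt10, a suprabasal keratin of epidermis, were above the level and steady, at 8.37, 8.50 and 8.61 (mean 8.50 ± 0.12) and at 8.95, 8.76 and 8.83 (mean 8.85 ± 0.092). Krt13 was not above the level at 4.64, 6.04 and 5.64 (mean 5.44 ± 0.72), and Krt76 and Krt16 were not above it either, at 5.29 ± 0.12 and 5.38 ± 0.038. Krt6a was at 8.45, 9.59 and 9.40 (mean 9.14 ± 0.61) and Krt17 at 6.55, 7.41 and 7.34 (mean 7.10 ± 0.47), with array 1 low in both, whereas Elf5 and Cldn7 were high on array 1 at 7.79, 7.01 and 6.98 (mean 7.26 ± 0.46) and at 8.72, 8.11 and 8.11 (mean 8.31 ± 0.36). Over the list 22 of 33 members were highest on array 1, against 49.3% of all genes above the level. Factors of taste and foregut epithelium were present, with Sox2 at 10.15, 9.82 and 9.76 (mean 9.91 ± 0.21), Foxa1 at 10.18 ± 0.18, Foxa2 at 9.57 ± 0.18 and Prox1 at 7.53 ± 0.13.

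**Figure D3:**
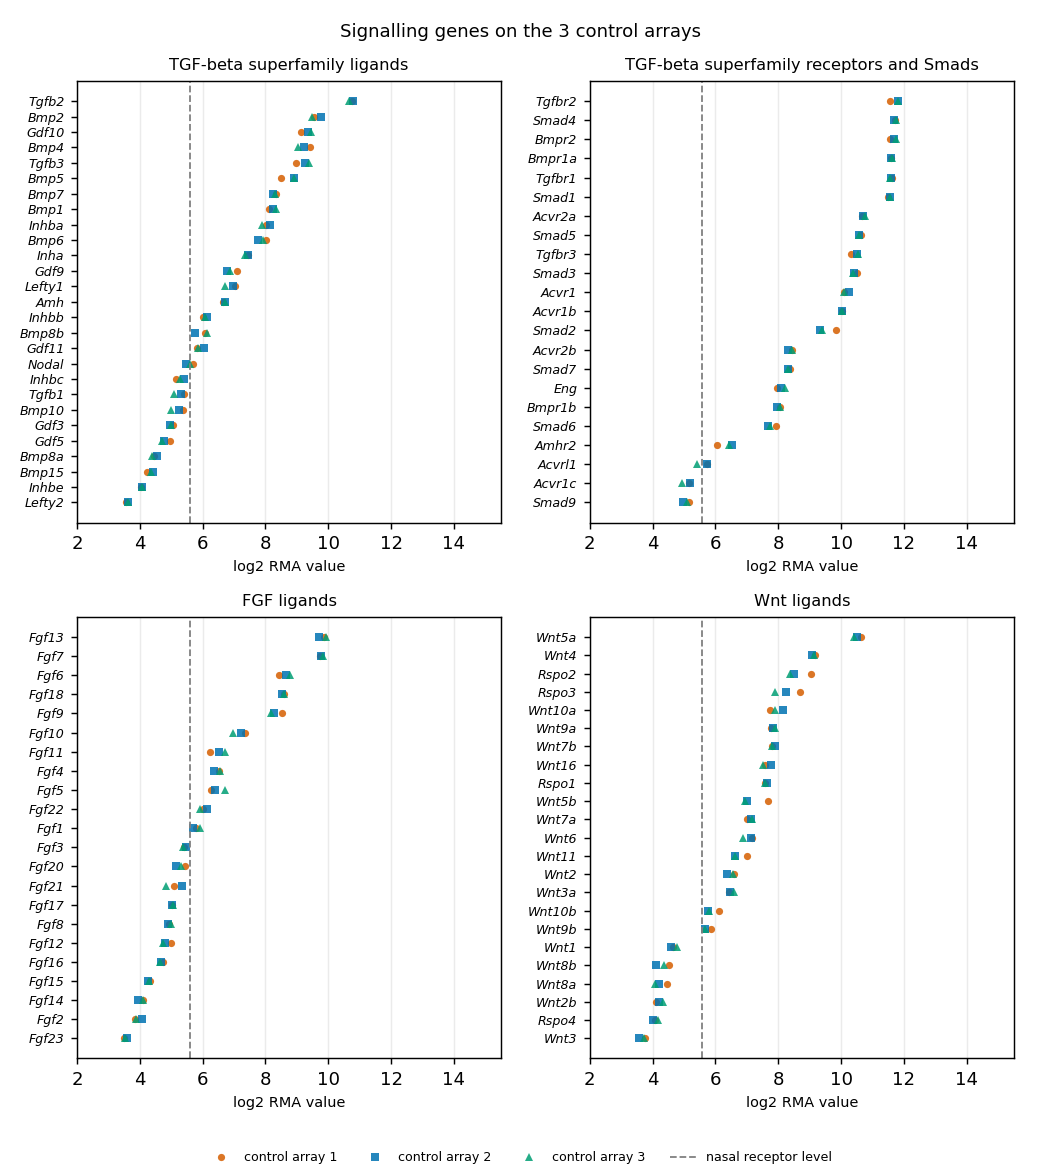
Values of TGF-beta superfamily ligands, TGF-beta superfamily receptors and Smads, FGF ligands and Wnt ligands (log2 RMA value) on the 3 control arrays, ordered by mean, with the nasal receptor level dashed. Symbols of the arrays nearly coincide for most genes. In turn 17 of 27, 19 of 22, 11 of 22 and 17 of 23 genes lie above the level, against 68.3% of all genes.

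Among ligands of the TGF-beta superfamily, 17 of 27 were above the level (63.0%), near the 68.3% of all genes. The count was 18 with the 90th percentile of the nasal receptor genes and 14 with the 99th. Tgfb2 was the brightest at 10.74, 10.77 and 10.66 (mean 10.73 ± 0.057), and Tgfb3 was at 8.96, 9.27 and 9.39 (mean 9.21 ± 0.22), while Tgfb1 was not above the level at 5.40, 5.31 and 5.09 (mean 5.26 ± 0.16). The bone morphogenetic proteins Bmp2 and Bmp4, which act between epithelium and mesenchyme, were at 9.55, 9.76 and 9.48 (mean 9.60 ± 0.15) and at 9.43, 9.23 and 9.04 (mean 9.24 ± 0.20), Bmp5 was at 8.78 ± 0.24 and Bmp7 at 8.29 ± 0.045. Gdf10 was at 9.12, 9.36 and 9.44 (mean 9.31 ± 0.17), the activin subunit Inhba at 8.01 ± 0.12 and the procollagen protease Bmp1 at 8.23 ± 0.11. Lefty2, Inhbe, Bmp15, Bmp8a, Gdf5, Gdf3 and Bmp10 were not above the level, with means from 3.61 to 5.20.

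The receptors and Smads of the family were bright, with 19 of 22 above the level and a median of 10.09. Tgfbr2, the floxed receptor that binds TGF-beta, was at 11.55, 11.82 and 11.80 (mean 11.72 ± 0.15). Its partner Tgfbr1, which passes the signal on, was at 11.63, 11.58 and 11.57 (mean 11.59 ± 0.029), and the co-receptor Tgfbr3 at 10.31, 10.50 and 10.53 (mean 10.45 ± 0.12). Tgfbr2 had 3 probe sets, and the others lay at 6.32, 6.35 and 6.64 and at 3.22, 3.27 and 3.31, which shows how far the level of a gene depends on the probe set read.

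The BMP and activin receptors followed. The BMP receptors Bmpr1a and Bmpr2 were at 11.60, 11.57 and 11.63 (mean 11.60 ± 0.029) and at 11.55, 11.67 and 11.75 (mean 11.66 ± 0.10), whereas Bmpr1b was at 8.04, 7.96 and 8.07 (mean 8.03 ± 0.054). The activin receptors Acvr2a, Acvr1, Acvr1b and Acvr2b were at 10.71 ± 0.043, 10.15 ± 0.083, 10.03 ± 0.014 and 8.39 ± 0.069. Endoglin (Eng), an endothelial co-receptor, was at 8.09 ± 0.14 and the receptor of anti-Müllerian hormone, Amhr2, at 6.32 ± 0.25. Acvrl1, a further endothelial receptor, and Acvr1c were not above the level, at 5.74, 5.72 and 5.42 (mean 5.63 ± 0.18) and at 5.09 ± 0.14.

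Within the cell, the common Smad4 was at 11.73, 11.68 and 11.74 (mean 11.72 ± 0.035). Of the Smads that carry TGF-beta signals, Smad3 was at 10.50, 10.42 and 10.38 (mean 10.43 ± 0.061) and Smad2 at 9.85, 9.33 and 9.37 (mean 9.52 ± 0.29), which had the largest SD of the list. The other probe set of Smad2 went the opposite way on array 1, at 6.27, 8.79 and 8.82. The BMP Smads Smad1 and Smad5 were at 11.54 ± 0.037 and 10.58 ± 0.043, and Smad9 was not above the level at 5.07 ± 0.094. The inhibitory Smad7 and Smad6 were at 8.33 ± 0.032 and 7.77 ± 0.13.

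FGF ligands were few and dim: 11 of 22 (50.0%) were above the level, a smaller share than the 68.3% of all genes. Fgf13, an intracellular member that is not secreted, was at 9.86, 9.71 and 9.94 (mean 9.84 ± 0.12). Fgf7, a mesenchymal signal to epithelium, was at 9.73, 9.78 and 9.84 (mean 9.78 ± 0.054) and Fgf10, of the same subfamily, at 7.33, 7.21 and 6.96 (mean 7.17 ± 0.19). Fgf6, a ligand produced in muscle, was at 8.44, 8.64 and 8.78 (mean 8.62 ± 0.17), and Fgf18 and Fgf9 were at 8.58, 8.51 and 8.61 (mean 8.57 ± 0.049) and at 8.51, 8.28 and 8.19 (mean 8.33 ± 0.17). Members near the level were Fgf11 at 6.48 ± 0.24, Fgf4 at 6.47 ± 0.10, Fgf5 at 6.46 ± 0.24, Fgf22 at 6.02 ± 0.11 and Fgf1 at 5.79 ± 0.11, and with the 99th percentile as the level 7 ligands passed. The ligands of early face and limb development Fgf8 and Fgf3 were not above the level, at 4.93, 4.91 and 4.98 (mean 4.94 ± 0.033) and at 5.42 ± 0.057, nor were Fgf20, Fgf21, Fgf17, Fgf12, Fgf16, Fgf15, Fgf14, Fgf2 and Fgf23, with means from 3.53 to 5.29.

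The receptor tyrosine kinases were above the level in 42 of 47 measured members. Epha3, an ephrin receptor, was the brightest at 11.98, 11.84 and 11.81 (mean 11.88 ± 0.089), followed by Pdgfra, the platelet-derived growth factor receptor of mesenchyme, at 11.92, 11.87 and 11.80 (mean 11.86 ± 0.059). Its ligands Pdgfa and Pdgfc were at 11.20, 11.21 and 11.08 (mean 11.16 ± 0.071) and at 11.51, 11.25 and 11.20 (mean 11.32 ± 0.16). Pdgfrb, found on vessel walls, was at 10.95, 11.29 and 11.16 (mean 11.13 ± 0.17), with its ligand Pdgfb lower at 6.93 ± 0.073. The FGF receptors were at 10.38 ± 0.10 for Fgfr1, 9.56 ± 0.045 for Fgfr2, 8.67 ± 0.060 for Fgfr3 and 8.60 ± 0.16 for Fgfr4, the last of which is known from muscle precursors. Erbb3, the neuregulin receptor of Schwann cells and other cells, was at 11.13, 11.15 and 11.06 (mean 11.11 ± 0.045), whereas Erbb4 was not above the level at 2.85, 2.95 and 2.92 (mean 2.91 ± 0.048).

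Insulin-like growth factors were among the brightest growth factors. Igf2, imprinted and active in the fetus, led its list at 13.85, 13.95 and 14.00 (mean 13.93 ± 0.080), Igf1 at 12.50, 12.72 and 12.71 (mean 12.64 ± 0.13) and their receptor Igf1r at 10.41, 10.61 and 10.65 (mean 10.56 ± 0.13). Pleiotrophin (Ptn) and midkine (Mdk), heparin-binding factors of developing tissue, were at 12.79, 12.92 and 12.68 (mean 12.80 ± 0.12) and at 10.74 ± 0.20. Stem cell factor (Kitl) was at 10.66 ± 0.056 and its receptor Kit at 8.43 ± 0.030. The guidance ligand Sema3c was at 11.19, 11.50 and 11.55 (mean 11.42 ± 0.19). The epidermal growth factor ligands Egf and Ereg were not above the level, at 4.79 ± 0.12 and 3.13 ± 0.14, while their receptor Egfr was at 9.84 ± 0.11.

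Of the Wnt and R-spondin ligands 17 of 23 were above the level (73.9%), near the 68.3% of all genes. Wnt5a, a mesenchymal ligand that guides outgrowth, was at 10.62, 10.52 and 10.41 (mean 10.52 ± 0.11), and its receptors Ror1, Ror2 and Ryk were at 9.13 ± 0.11, 8.85 ± 0.018 and 10.86 ± 0.044. Wnt4 was at 9.16, 9.06 and 9.14 (mean 9.12 ± 0.050). The R-spondins Rspo2 and Rspo3, which amplify Wnt signals, were at 9.03, 8.49 and 8.37 (mean 8.63 ± 0.35) and at 8.69, 8.25 and 7.91 (mean 8.28 ± 0.39), in both cases with array 1 the highest, and Rspo1 was at 7.60 ± 0.026.

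The other Wnt genes were dimmer. Wnt10a and Wnt7b, known from oral epithelium, were at 7.75, 8.14 and 7.90 (mean 7.93 ± 0.20) and at 7.83 ± 0.052, and Wnt9a, Wnt16, Wnt7a, Wnt6, Wnt11, Wnt2 and Wnt3a had means from 6.49 to 7.83. Wnt5b had a mean of 7.21 ± 0.40 and was at 7.67 on array 1, higher by 0.70 than the mean of the others. Wnt10b and Wnt9b lay just above the level, at 5.89 ± 0.20 and 5.73 ± 0.12. Wnt1, Wnt8b, Wnt8a, Wnt2b, Rspo4 and Wnt3 were not above it, with means from 3.67 to 4.67. All 15 Wnt receptors were above the level, led by Lgr4 at 11.70, 11.73 and 11.81 (mean 11.75 ± 0.056), Fzd1 at 10.76 ± 0.023, Fzd7 at 10.56 ± 0.085 and Fzd2 at 10.45 ± 0.10.

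Hedgehog and Notch genes were mostly present. Sonic hedgehog (Shh), secreted by tongue epithelium and taste placodes, was at 9.65, 9.23 and 9.15 (mean 9.35 ± 0.27), and its receptor and target Ptch1 was at 11.29, 11.44 and 11.34 (mean 11.36 ± 0.076). The co-receptor Gas1 was the brightest of the 13 of 14 hedgehog genes above the level, at 13.08, 13.11 and 13.05 (mean 13.08 ± 0.031), and Ihh was the only one not above it at 5.28, 5.48 and 5.05 (mean 5.27 ± 0.21). The factors Gli3 and Gli2 were at 10.50 ± 0.10 and 10.18 ± 0.018, and the target Gli1 at 7.74 ± 0.11. Of 15 Notch genes 12 were above the level (80.0%, against 68.3% of all genes), including Notch1 at 10.62 ± 0.14 and Jag1 at 10.60 ± 0.13. Dll4, Hey2 and Dll3 were not above it, with means of 5.59, 5.55 and 5.03.

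Imprinted genes, of which only the copy from one parent is active, were bright as a group: all 23 measured were above the level, with a median of 11.86 against 7.35 over all genes. After Plagl1 and Cdkn1c came Gnas at 14.01, 14.12 and 14.15 (mean 14.09 ± 0.072), Peg3 at 13.91, 13.98 and 14.04 (mean 13.97 ± 0.066), Igf2, Ndn at 13.70 ± 0.025 and Grb10 at 13.43 ± 0.078. The place of Plagl1 rests on a single probe set far brighter than its others. Of the cluster that holds Dlk1, Meg3, Rian and Mirg, the protein-coding Dlk1 was at 11.74, 11.95 and 11.95 (mean 11.88 ± 0.12), and the noncoding Rian and Mirg were at 12.95, 13.40 and 13.33 (mean 13.23 ± 0.24) and at 7.81, 8.38 and 8.11 (mean 8.10 ± 0.29). The noncoding Meg3 was at 10.50, 12.68 and 12.40 (mean 11.86 ± 1.18), with array 1 far below the others. Array 1 was the lower in all 11 probe sets of Meg3, with differences from the mean of arrays 2 and 3 between -2.30 and -0.43. Kcnq1ot1, a noncoding imprinted RNA of another cluster, was also low on array 1, at 7.13, 8.14 and 8.25 (mean 7.84 ± 0.62), in 5 of its 6 probe sets. Over the group, 20 of 23 genes were lowest on array 1, against 30.9% of all genes above the level. Phlda2 went the other way at 7.72, 7.16 and 7.03 (mean 7.30 ± 0.37).

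Markers of further cell types showed what else the tongues held. Red cells of the yolk sac type were evident from Hbb-y at 14.39, 13.98 and 14.08 (mean 14.15 ± 0.21), Hba-x at 10.18, 9.07 and 9.39 (mean 9.55 ± 0.57) and Hbb-bh1 at 9.08, 7.56 and 7.87 (mean 8.17 ± 0.80). The adult alpha-globin probe set with a single symbol, Hba-a1, was not above the level at 3.95 ± 0.046, and adult globin probe sets that carry several symbols were not named. All 12 macrophage markers were above the level, led by Csf1r at 9.88, 9.84 and 9.67 (mean 9.80 ± 0.11), and 11 of 12 endothelial markers were, led by Kdr at 8.69, 8.76 and 8.86 (mean 8.77 ± 0.086) and Cldn5 at 8.76, 8.46 and 8.50 (mean 8.57 ± 0.16).

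Nerve and support cells were also represented. All 8 Schwann cell markers were above the level, among them Fabp7 at 9.06, 8.76 and 8.94 (mean 8.92 ± 0.15) and Sox10 at 7.73 ± 0.038. Of 11 neuron and axon markers 10 were above it, including Dcx at 10.38, 10.92 and 10.85 (mean 10.71 ± 0.29), Isl1 at 9.44 ± 0.16 and Gap43 at 8.86 ± 0.15. The neurofilament genes Nefl and Nefm were highest on array 1: Nefl was at 9.12 there (mean 8.46 ± 0.58, range 1.12) and Nefm was at 8.06, 7.03 and 7.35 (mean 7.48 ± 0.53). Of smooth muscle and pericyte markers 8 of 10 were above the level, with Tagln at 9.95, 10.31 and 10.38 (mean 10.21 ± 0.23), Abcc9 at 9.52 ± 0.25 and Kcnj8 at 9.22 ± 0.067, while the mature smooth muscle markers Myh11 and Cnn1 were not, at 5.23 ± 0.047 and 4.37 ± 0.25.

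Cartilage and heart were thinly represented, each with a smaller share of markers above the level than the 68.3% of all genes. For bone, 3 of 5 measured markers were above the level, and the means of the list ran from 5.12 to 6.95. Of 10 cartilage markers 4 were above the level (Sox6, Col9a1, Col2a1 and Sox5), and Acan, Matn1, Matn3, Hapln1, Col11a2 and Cnmd were not. Col2a1, the main collagen of cartilage, was at 7.59, 7.53 and 7.48 (mean 7.54 ± 0.055). Of 9 heart markers 4 passed, led by Nkx2-5 at 8.19, 8.44 and 8.35 (mean 8.33 ± 0.13), a factor known also outside the heart, and Nppa, Gata4, Tnni3, Myl7 and Nppb did not, with means from 3.61 to 5.78. The defining brain markers were at background, with 0 of 9 above the level.

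Of the 12421 genes above the level, 33 (0.266%) spanned more than 1 on the log2 scale between the arrays. Without array 1 the number was 6, and without array 2 or 3 it was 23 or 25. In 25 of the 33 genes array 1 was the odd array, lower in 16 and higher in 9. Spread depended on brightness: with genes split by mean into 10 equal groups, the median SD was 0.112 in group 3 from the dim end and 0.0588 in the brightest group.

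**Figure D4:**
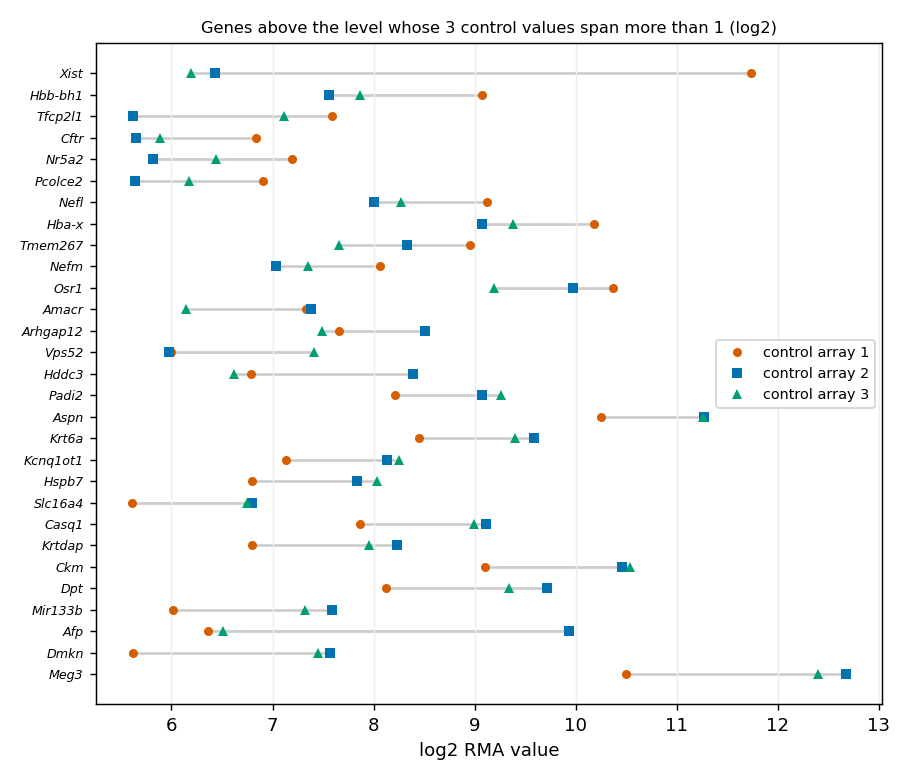
Values of 29 genes (log2 RMA value) whose range over the 3 control arrays exceeded 1, ordered from those highest to those lowest on array 1 (circles, squares and triangles for arrays 1, 2 and 3; grey bars join the lowest and highest value). The other 4 of the 33 genes have clone-type names and are not drawn. Xist and Hbb-bh1 lie highest on array 1, Meg3, Dmkn, Ckm and Casq1 lowest on it, and Afp stands out on array 2.

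The widest range belonged to Xist, the noncoding RNA that coats the inactive X chromosome of female cells, at 11.74, 6.43 and 6.20 (mean 8.12 ± 3.14). All 3 probe sets of Xist were high on array 1, by 5.43 to 6.72. The Y-linked genes went the other way: Eif2s3y was at 3.34, 9.44 and 9.09, Uty at 3.29, 8.16 and 8.09 and Kdm5d at 2.91, 7.93 and 7.94. Array 1 thus had the pattern of female tissue, and arrays 2 and 3 that of male tissue. Zfy2 and Usp9y were not above the level on any array, at 4.31, 3.95 and 3.70 and at 5.07, 5.23 and 4.94. For Sry the brightest probe set was above the level on every array, at 5.90, 5.85 and 5.85, and equally so on the array with high Xist, so its signal is background above the level used here, and its other probe set was at 2.85, 2.84 and 2.85.

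Genes that escape X inactivation were higher on array 1. Eif2s3x was at 12.26, 11.70 and 11.81 (mean 11.93 ± 0.29), Kdm6a at 9.87, 9.35 and 9.26 (mean 9.50 ± 0.33) and Kdm5c at 9.54, 9.08 and 9.21 (mean 9.28 ± 0.24), whereas Ddx3x was nearly even at 13.01, 12.96 and 13.01 (mean 12.99 ± 0.026). The 412 X-linked genes above the level other than Xist, with the escape genes kept, differed between array 1 and the mean of arrays 2 and 3 by a median of 0.0116. For 11958 autosomal genes the median was 0.0366. Sex and every other difference between array 1 and the other arrays cannot be told apart with these 3 arrays.

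The next widest gene was Afp, the fetal serum protein of liver and yolk sac, at 6.37, 9.93 and 6.51 (mean 7.60 ± 2.02), with array 2 the highest in 4 of its 5 probe sets. Of 8 liver markers measured, 3 were above the level, namely Afp, Ttr and Apoa1. Ttr and Apoa1 were also highest on array 2, but by far less, at 6.30, 6.47 and 6.16 (mean 6.31 ± 0.15) and at 6.04, 6.13 and 5.87 (mean 6.01 ± 0.13). Albumin (Alb) was not above the level, at 5.13, 5.72 and 5.28 (mean 5.38 ± 0.31). Hddc3 was high on array 2 at 6.79, 8.39 and 6.62 (mean 7.27 ± 0.98), whereas its other probe set was lowest there at 5.94, 5.70 and 5.97. Tfcp2l1, a factor of epithelial ducts, was low on array 2 at 7.59, 5.62 and 7.12 (mean 6.78 ± 1.03). On array 3, Vps52, of vesicle transport, was high at 6.00, 5.98 and 7.41 (mean 6.46 ± 0.82) and Amacr, a peroxisomal enzyme, low at 7.33, 7.38 and 6.14 (mean 6.95 ± 0.70). Vps52 had another probe set that did not follow, at 5.81, 5.70 and 5.51.

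Genes standing apart on an array were counted as those differing from both other arrays by more than 0.5 in the same direction. Array 1 was higher for 58 genes (0.467%) and lower for 97 (0.781%). For array 2 the counts were 8 higher (0.0644%) and 7 lower (0.0564%), and for array 3 they were 5 higher (0.0403%) and 8 lower (0.0644%). Of 77 further probe sets above the level for genes lower on array 1, 74 had the same sign, with a median of -0.51. Of 22 further probe sets for genes higher on array 1, 20 had the same sign, with a median of 0.47.

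**Figure D5:**
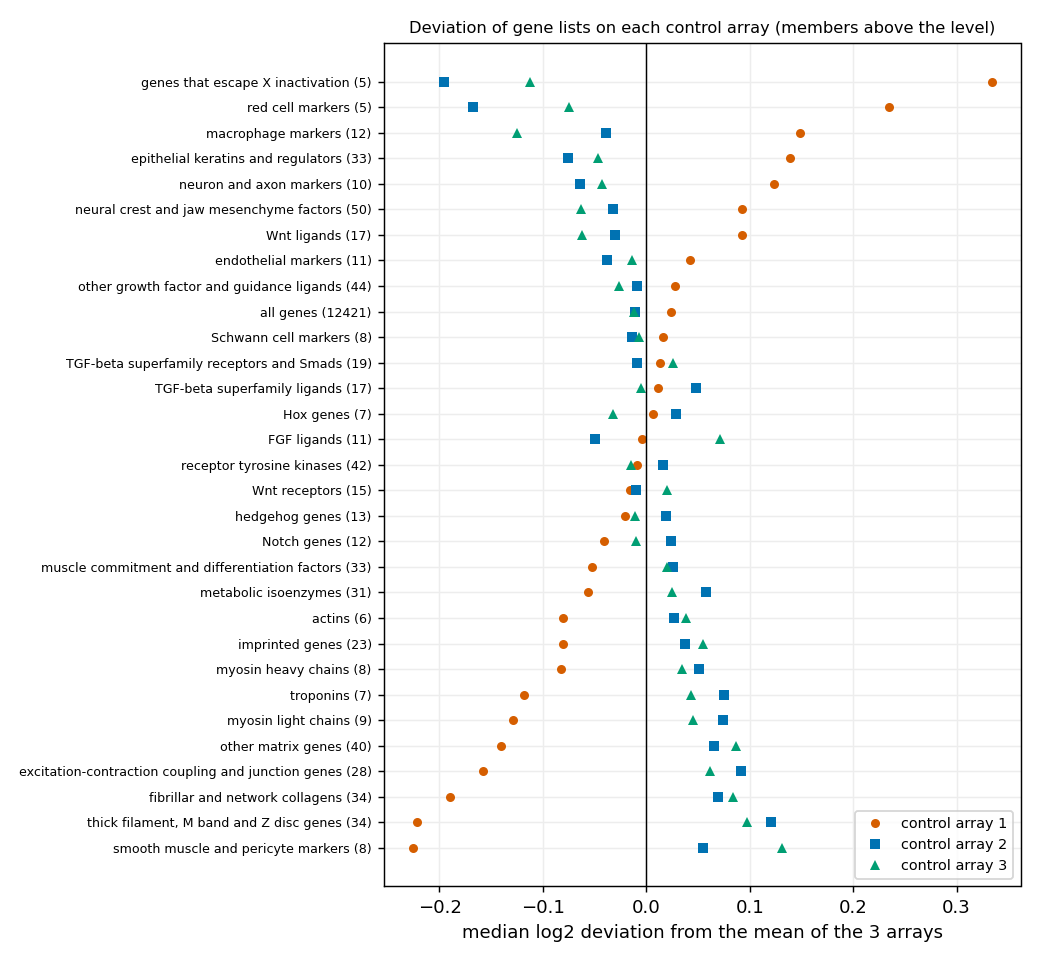
Median over the members above the level of a gene's log2 deviation from its mean over the 3 arrays, for lists with at least 5 such members (number in brackets) and for all genes, on control arrays 1 (circles), 2 (squares) and 3 (triangles). Array 1 ranges from -0.23 for smooth muscle and pericyte markers to 0.33 for genes that escape X inactivation, while arrays 2 and 3 stay between -0.20 and 0.13.

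Lists of the sarcomere, the matrix and smooth muscle lay low on array 1. The median deviation on array 1 was -0.22 for thick filament, M band and Z disc genes, -0.19 for collagens, -0.16 for excitation-contraction coupling and -0.14 for other matrix genes, beside 0.02 for all genes. All 8 smooth muscle and pericyte markers above the level were lowest on array 1, against 30.9% of all genes above it, with a median of -0.23. Of the 97 genes lower on array 1, 28 were in the contractile, coupling, matrix and smooth muscle lists, and 61 were in none of the lists used here. The 28 were 15.8% of the 177 members of these lists above the level, against 0.781% of all genes above it. These lists were chosen with earlier results of these data known, so the share only describes them. Lists left out of this group had 1 of 33 (muscle regulators) and 2 of 31 members (metabolic isoenzymes) lower on array 1. The 28 included 9 of 34 members of the thick filament, M band and Z disc list (Ttn, Neb, Actn3, Ldb3, Myoz1, Csrp3, Nrap, Lmod2 and Tmod1), 5 of 28 of the coupling list (Cacna2d1, Cacnb1, Ryr3, Trdn and Casq1) and 5 of 34 collagens (Col1a1, Col6a3, Col12a1, Col19a1 and Col22a1). All 6 probe sets of Ttn were lower on array 1, with differences from the mean of the others between -1.42 and -0.21.

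Some of the other genes with a wide range were also low on array 1, and they were chosen after their values were seen. Dmkn and Krtdap, proteins of differentiating epidermis, were at 5.62, 7.57 and 7.45 (mean 6.88 ± 1.09) and at 6.79, 8.23 and 7.95 (mean 7.66 ± 0.76). Dermatopontin (Dpt) and asporin (Aspn), matrix proteins of connective tissue, were at 8.12, 9.72 and 9.34 (mean 9.06 ± 0.83) and at 10.25, 11.27 and 11.26 (mean 10.93 ± 0.58). The probe set of the Mir133b locus, a microRNA gene of muscle, was at 6.02, 7.59 and 7.32 (mean 6.98 ± 0.84), which reads the locus transcript and not the mature microRNA. Hspb7, a small heat shock protein of muscle, was at 6.80, 7.84 and 8.04 (mean 7.56 ± 0.66).

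Other lists lay higher on array 1, where 49.3% of all genes above the level had their highest value. All 5 red cell markers above the level were highest there, with a median deviation of 0.23, as were 11 of 12 macrophage markers (0.15) and 22 of 33 epithelial genes (0.14). The myogenic regulators lay nearer to the other arrays than the thick filament list did, with a median deviation of -0.05 on array 1. Of the 33 regulators above the level 18 were lowest on array 1, against 30.9% of all genes above it. Their ranges reached from 0.022 for Msc to 0.58 for Myf6, and those of the thick filament list from 0.0052 for Myoz3 to 0.98 for Ttn. The retinoid-binding genes Crabp1 and Crabp2 were higher on array 1, at 10.91, 10.28 and 10.25 (mean 10.48 ± 0.38) and at 10.40, 9.79 and 9.77 (mean 9.99 ± 0.36), as was Aldh1a2, which makes retinoic acid, at 7.29, 6.42 and 6.51 (mean 6.74 ± 0.48).

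Measures of RNA and hybridisation quality were set beside these differences. The gap between the 3′ and the 5′ control probe sets, which widens as RNA degrades, was 0.81, 0.86 and 0.91 for beta-actin and 0.18, 0.26 and 0.32 for Gapdh on arrays 1, 2 and 3. The hybridisation controls had medians of 10.41, 10.41 and 10.67, and the polyadenylated spike-ins 7.97, 7.73 and 8.14. Genes lower on array 1 had a median gene length of 35.2 kb and genes higher on it 19.2 kb, beside 24.0 kb over all genes above the level. The part of RNA quality, gene length, sex, exact stage or dissection in the pattern of array 1 was not tested.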

How the data were processed

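Total RNA of E14.5 tongues was purified with a Qiagen RNeasy kit and labelled with biotin for Affymetrix arrays, per the labels' protocols. The authors deposited log2 values from RMA, per the submitters' processing notes (no version given). RMA corrects background, brings all arrays to a common distribution and combines the probes of a probe set, so shifts of most genes together are hidden and differences between dim genes shrink. Which arrays were normalized together, and the genome build, are not given in the sources used here. Arrays have no read depth, and their number limits the precision.

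Of 45101 probe sets, 64 serve as array controls. By the platform annotation 34945 have 1 gene symbol, 932 several and 9160 none. Matching to a RefSeq gene table of GRCm38.p6 changed 0 symbols, with 204 probe sets unmatched. The deposited values were used as they are, with Python 3.11.15, pandas 2.3.3, numpy 2.4.6 and matplotlib 3.10.9. With 3 arrays of 1 group no test was made, and the mean, SD, range and counts describe the arrays. The counting steps were tested on simulated data. A gene was above the level when it exceeded the 95th percentile of the nasal receptor genes on all 3 arrays.

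The 40 lists hold 810 genes, of which 753 were measured and 57 were not analysed here. Members and lists were chosen with earlier results of these data known. The rule for named genes took the 30 brightest genes, the 15 with the widest range, the 5 highest and 5 lowest deviating on each array, up to 8 of the brightest and 8 of the dimmest members of a list, and all members of the isoform, Hox, TGF-beta receptor, FGF, Wnt ligand and Y-linked lists. Other named members, such as Myod1, Pax3, Pax7, Tcf7l2, Crabp1 and the members standing apart on array 1, were chosen after their values were seen. Alternatives changed the level, its reference genes, the probe set rule, the scaling, the filter and the arrays used.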

Additional observations from a re-analysis of the deposited data

How the results depend on the processing

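Of 381 values recomputed for 80 results, 348 stayed within wide limits around the reported value and 33 moved beyond them. The limit was a fixed factor for a count and the reported value itself for the median SD. For a list deviation it was the SD of that list's deviations over the arrays, so a change of sign could pass. A median SD of 0.047 without array 1 thus counted as unmoved, beside 0.0815 with all arrays. The number of genes above the level ranged from 10297 to 13266 over all alternatives. With the 90th percentile as the level, 12 Hox genes and 1 brain marker passed. With the 99th, 7 FGF ligands, 0 Y-linked genes, 0 liver markers, 1 pancreas and gut marker and 0 retina and lens markers passed. With all probe sets of a gene averaged, 0 Y-linked genes, 0 liver and 0 testis markers passed, 21 genes had a range over 1, and 17 of the 30 brightest genes remained, or 19 without probe sets whose suffix marks shared probes. The median deviation on array 1 then became -0.029 for TGF-beta receptors and Smads, 0.015 for Wnt receptors and -0.038 for Schwann cell markers, which became 0.031 with centred arrays. With all genes kept, 56 had a range over 1. Leaving out each array in turn gave 6 to 25 such genes, a median SD of 0.047 to 0.0799, 12480 to 12513 genes above the level, 1 to 4 Y-linked genes and 29 to 30 of the brightest genes.

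Alternatives for genes standing apart were chosen after seeing the data. A distance of 1 left 2 genes higher and 12 lower on array 1, 2 higher and 1 lower on array 2, and 1 higher and 1 lower on array 3. With all genes kept, 95 were higher on array 1, 17 higher and 22 lower on array 2, and 12 higher and 20 lower on array 3. With the mean of probe sets, 3 were lower on array 2 and 3 higher on array 3. The cause of these shifts was not tested, apart from the stricter or looser limit and the number of genes or arrays kept that define an alternative. No paired analysis was possible because a single group was described and no test was made. Dim genes lie close to the nasal receptor level, and 3 arrays set the precision of every spread.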

Other observations

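Probe sets without a single gene symbol were dimmer than named ones. Of 10092 such probe sets 2400 (23.8%) lay above the nasal receptor level on all 3 control arrays, beside 21514 of the 34945 with 1 symbol (61.6%).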
